A study of Rattus norvegicus with 18 samples.

Results

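The miR-99/100 and miR-125 families were examined in a hindlimb muscle, the gastrocnemius, of male Brown Norway rats, as the 5 entries rno-miR-99a-5p, rno-miR-99b-5p, rno-miR-100-5p, rno-miR-125a-5p and rno-miR-125b-5p of a table of 909 entries, 763 of them known miRNAs. The rule was their names, and no level or test decides membership. Small RNA libraries came from 18 rats, 1 library per rat, in 3 groups of 6. Young AL rats were fed ad libitum until 6 months of age (replicates 1 to 6), old AL rats were fed ad libitum until 28 months (replicates 7 to 12), and old CR rats of 28 months (replicates 13 to 18) had been on caloric restriction from 2 months, at 55% of the ad libitum intake. There was no young CR group, so the effect of CR was measured at 28 months alone. All rats were of 1 sex and 1 inbred strain, and the muscle was powdered whole, so each library holds the RNA of every cell type in it. In such samples, fewer cells of a type and less RNA per cell cannot be told apart.

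A miRNA guides the silencing complex to messenger RNAs that pair with its seed, the bases near its 5′ end, so miRNAs with the same seed are treated as a family. The miR-99/100 family is known for repressing mTOR and the IGF1 receptor, which drive growth. The miR-125 family descends from lin-4, the first miRNA described, a timer of development in worms. In mammals the families sit together, since a miR-99/100 gene, a let-7 gene and a miR-125 gene are neighbours in each of 3 clusters. In the RefSeq annotation the clusters are Mir99a with Mirlet7c1 and Mir125b2, Mir100 with Mirlet7a-2 and Mir125b1, and Mir99b with Mirlet7e and Mir125a. rno-miR-125b-5p is made from both Mir125b1 and Mir125b2, and let-7a and let-7c have further genes elsewhere, whereas rno-miR-99b-5p, rno-let-7e-5p and rno-miR-125a-5p come from 1 gene each.

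The mature sequences are shown because the seed defines each family, and because 2 other entries are tied to the members by sequence. They are from RefSeq (GRCr8), 5′ to 3′, with the seed (bases 2 to 8) in capitals. RefSeq sequences were matched for 4 of the 5 members (not for rno-miR-99a-5p).
rno-miR-99b-5p: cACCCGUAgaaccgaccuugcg
rno-miR-100-5p: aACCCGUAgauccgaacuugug
rno-miR-125a-5p: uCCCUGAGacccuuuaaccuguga
rno-miR-125b-5p: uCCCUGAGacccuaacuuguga
rno-miR-351-5p: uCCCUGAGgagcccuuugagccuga
rno-miR-3588: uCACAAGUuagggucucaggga

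rno-miR-99b-5p and rno-miR-100-5p have the same seed and 18 of 22 bases in common. rno-miR-125a-5p and rno-miR-125b-5p share a seed too, with 15 of 22 positions identical when aligned at the 5′ end. The miR-125 seed stands in 3 of the 693 mature miRNAs of the RefSeq table, the third being rno-miR-351-5p, which is encoded elsewhere. rno-miR-3588 is the exact reverse complement of rno-miR-125b-5p, and RefSeq places it on the opposite strand of the same bases. Its counts were 99.4 to 99.8% of those of rno-miR-125b-5p in every library (1952739 against 1958286 in all), so counts on the 2 strands cannot be told apart in this table, and rno-miR-3588 was left out. A predicted candidate had nearly the counts of rno-miR-99a-5p in the 16 libraries where it was counted, and 2 other candidates had those of rno-miR-100-5p in 6 and 2 libraries. rno-miR-99a-5p and rno-miR-100-5p are near-identical in sequence, and the sources used here do not say how reads that match both were counted.

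Total counts ran from 34940346 to 83110905 per library. The 4 entries of the miR-1 family took 60.7 to 86.8% of them, so that the counts left for other miRNAs differed between libraries, and the factors of the trimmed mean of M-values (TMM) ran from 0.639 to 2.14, the highest in old AL replicate 7. Levels are therefore given as CPM, the count relative to the TMM-scaled library total, and the main comparisons within the families are also given as ratios of 2 counts of the same library, which do not depend on any scaling. Together the 5 members took 0.541 to 2.28% of all counts, and 3.42 to 6.74% of the counts outside the miR-1 family. The least counted member in any library still had 6413 counts, so counting error is small beside the spread between rats. The library totals are sums over all entries and not numbers of reads. Several entries hold nearly the same counts, as shown above, so 1 read may stand in more than 1 entry. The highest total lies above the mapped reads that the paper lists for any sample, and the cause of this excess was not tested. The shares given here and the ranks below are therefore of counts, with such entries included.

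rno-miR-99a-5p was by far the most abundant member, ranking 10 among 763 known miRNAs by total counts, followed by rno-miR-125b-5p (rank 26), rno-miR-100-5p (rank 41), rno-miR-125a-5p (rank 48) and rno-miR-99b-5p (rank 60). The mature forms with a known length are 22 to 24 nt long, so CPM values need no length correction, but adapter ligation also differs between sequences, and its part in this order was not tested. In young AL the mean levels were 8433 ± 2139 CPM for rno-miR-99a-5p, 1911 ± 416 CPM for rno-miR-125b-5p, 764 ± 112 CPM for rno-miR-100-5p, 537 ± 167 CPM for rno-miR-125a-5p and 233 ± 31.0 CPM for rno-miR-99b-5p (SD, n = 6). The order of the mean levels was the same in old AL and old CR. Neighbours in that order did not overlap within any group, except rno-miR-100-5p and rno-miR-125a-5p, whose ranges overlapped in all 3 groups (651 to 974 and 324 to 731 CPM in young AL).

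rno-miR-99a-5p had the clearest pattern. Its levels in young AL replicates 1 to 6 were 7632, 7770, 5737, 7480, 11510 and 10470 CPM. In old AL they were lower and close together, at 6868, 5858, 5971, 6040, 5900 and 4899 CPM in replicates 7 to 12. Old CR replicates 13 to 18 stood at 8064, 7280, 9610, 10241, 6921 and 8113 CPM. Every old CR library thus lay above every old AL library, narrowly, with 6921 CPM as the lowest and 6868 CPM as the highest value. Young AL overlapped with both old groups, and 1 old AL library (replicate 12) lay below every young library. The separation of the 2 old groups depends on the TMM scaling. As a share of library totals, old AL replicate 7 (719504 of 48964459 counts) lay above every old CR library, such as replicate 13 (437162 of 82305550 counts). The means were 8433 ± 2139, 5923 ± 626 and 8372 ± 1303 CPM for young AL, old AL and old CR (SD, n = 6).

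By edgeR's quasi-likelihood test with Benjamini-Hochberg adjustment over all entries, rno-miR-99a-5p differed between old AL and young AL by a log2 fold change of -0.51 (standard error 0.174, unadjusted p = 0.0118, adjusted p = 0.118). In old CR against old AL it was 0.51 (standard error 0.127, unadjusted p = 0.00174, adjusted p = 0.319 from edgeR), the entry with rank 4 by p among 736. For old CR against young AL it was -0.02 (standard error 0.176, with an edgeR adjusted p of 0.977). An entry was called, after the thresholds of the study, where the adjusted p did not exceed 0.05 and the change reached 1.5-fold, and none of these 3 differences was called. DESeq2, which the study used, gave adjusted p of 0.0359 and 0.00216 for the first pair of comparisons, with log2 fold changes of -0.51 and 0.51 that fall short of 1.5-fold. Scaled by library totals alone, the differences shrank to -0.35 and 0.19 (standard errors 0.354 and 0.340). Both comparisons use the old AL libraries, so they are not independent of each other.

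**Figure D1:**
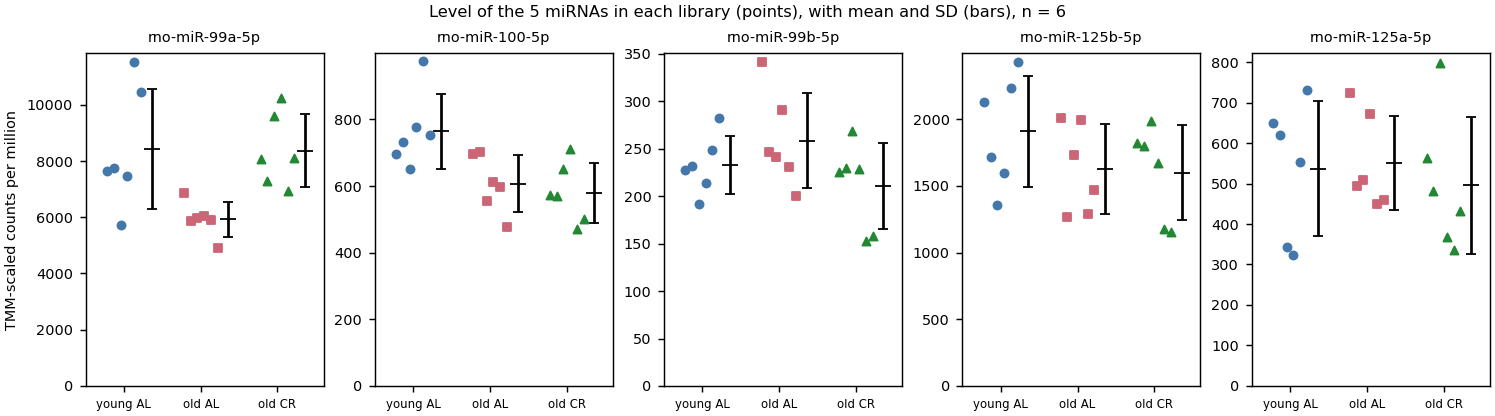
TMM-scaled CPM of the 5 miRNAs (1 panel each, y axis from 0) in the 6 young AL, 6 old AL and 6 old CR libraries. Points are libraries in order of replicate, bars show the mean and SD. The old AL libraries of rno-miR-99a-5p lie at 4899 to 6868 CPM, below all old CR libraries, and those of rno-miR-100-5p are lower in both old groups than most young libraries.

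rno-miR-100-5p, which shares the miR-99/100 seed, did not follow rno-miR-99a-5p in old CR. Young AL replicates 1 to 6 held 695, 732, 651, 778, 974 and 753 CPM. Old AL replicates 7 to 12 held 695, 703, 555, 612, 598 and 477 CPM, and 4 of the 6 lay below all young libraries. In old CR replicates 13 to 18 the values were 573, 569, 650.1, 711, 471 and 499.7 CPM, with 5 of 6 below all young libraries. The means were 764 ± 112, 607 ± 85.7 and 579 ± 90.2 CPM in young AL, old AL and old CR (SD, n = 6). The log2 fold change was -0.34 in old AL (standard error 0.128, unadjusted p = 0.0221, adjusted p = 0.153 from edgeR) and -0.40 in old CR against young AL (standard error 0.138, unadjusted p = 0.0124, adjusted p = 0.0878 from edgeR). It was -0.06 in old CR against old AL (standard error 0.136, with an edgeR adjusted p of 0.945). In old CR against young AL the adjusted p was 0.0215 with filterByExpr in edgeR and 0.00953 from DESeq2, both short of 1.5-fold. By library totals the log2 fold changes were -0.14 in old AL and -0.54 in old CR against young AL, and -0.41 in old CR against old AL (standard errors 0.347, 0.196 and 0.354, lowest edgeR adjusted p 0.121).

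rno-miR-99b-5p, the least abundant member, showed no difference past the threshold. Its levels were 227, 232, 192, 214, 248 and 283 CPM in young AL replicates 1 to 6. They were 342, 246, 242, 291, 231 and 201 CPM in old AL replicates 7 to 12, and 225, 229, 269, 228, 153 and 158 CPM in old CR replicates 13 to 18. The 3 groups overlapped, with old AL replicate 7 the highest and old CR replicates 17 and 18 the lowest. The log2 fold changes were 0.15 in old AL (standard error 0.148, adjusted p = 0.635) and -0.15 in old CR against young AL (standard error 0.161, adjusted p = 0.651), and -0.29 in old CR against old AL (standard error 0.174, adjusted p = 0.504, all from edgeR). They depended on the scaling and on single libraries. By library totals they were 0.37, -0.31 and -0.68 (standard errors 0.381, 0.216 and 0.388, lowest edgeR adjusted p 0.447), and without old AL replicate 7 the first was 0.05 and the last -0.20. With any 1 library left out, the first ran from 0.05 to 0.22.

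The miR-125 family also lacked a difference past the threshold. rno-miR-125b-5p was at 2128, 1719, 1358, 1598, 2233 and 2432 CPM in young AL replicates 1 to 6, with a mean of 1911 ± 416 CPM. In old AL it was at 2013, 1267, 1733, 1997, 1288 and 1473 CPM (mean 1628 ± 336), and in old CR at 1820, 1800.1, 1986, 1670, 1177 and 1152 CPM (mean 1601 ± 353, SD, n = 6). The groups overlapped widely. The log2 fold changes against young AL were -0.24 in old AL and -0.26 in old CR (standard errors 0.193 and 0.188, adjusted p = 0.503 and 0.453 from edgeR), and -0.02 in old CR against old AL (standard error 0.181). By library totals the 3 values were -0.05, -0.43 and -0.38 (standard errors 0.373, 0.231 and 0.359).

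rno-miR-125a-5p varied most between rats of the same group, with a SD of 31.2% of the mean in young AL and 34.1% in old CR. Young AL held 648, 620.4, 343, 324, 554 and 731 CPM, old AL 723, 494, 509, 671, 449 and 460.2 CPM, and old CR 562, 480.4, 798, 367, 336 and 432 CPM. Young AL replicates 3 and 4 were as low as the lowest old CR libraries. The log2 fold changes of 0.02, -0.12 and -0.15 in the 3 comparisons (old AL and old CR against young AL, old CR against old AL) were smaller than their standard errors of 0.233, 0.261 and 0.216 (edgeR). By library totals they were 0.25, -0.24 and -0.49 (standard errors 0.413, 0.326 and 0.426).

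In all, 0 of the 5 members were called by edgeR in any comparison, and 0 by DESeq2. Among all entries tested, edgeR called 3.28% in old AL against young AL, 9.32% in old CR against young AL and 0.272% in old CR against old AL. At an unadjusted p under 0.05 from edgeR stood 2 members in old AL against young AL (rno-miR-99a-5p and rno-miR-100-5p), where 23.4% of all entries did. In old CR against young AL it was 1 member (rno-miR-100-5p) against 25.5% of entries, and in old CR against old AL 1 member (rno-miR-99a-5p) against 12.0%. In TMM-scaled CPM, the groups did not overlap for 0 members in the first 2 comparisons, where 3.55% and 5.75% of entries did not. In old CR against old AL they did not overlap for 1 member, rno-miR-99a-5p, where 0.543% of entries did not. The median log2 fold change of the members was -0.24, -0.15 and -0.06 in the 3 comparisons, beside 0.06, 0.08 and 0.01 over all entries tested. Counts simulated with the spread of these libraries were called by edgeR in 13.3% of entries given a 2-fold change between old AL and young AL (98 entries among 732) and by DESeq2 in 25.5%. These shares are over entries of all levels, sparse ones included, and do not give the share for entries as abundant as the members.

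Of the ratios within a library, 2 had groups without overlap. Both contain rno-miR-99a-5p, so they are not independent of each other or of its levels. How often the ratios of other miRNA pairs lack overlap was not measured. The ratios tested here were also chosen with earlier results of these data known. The ratio of rno-miR-99b-5p to rno-miR-99a-5p, from the same family but different clusters, was 0.0298, 0.0299, 0.0335, 0.0286, 0.0216 and 0.0270 in young AL replicates 1 to 6. In old AL replicates 7 to 12 it was 0.0497, 0.0421, 0.0405, 0.0482, 0.0391 and 0.0409. In old CR replicates 13 to 18 it was 0.0280, 0.0315, 0.0280, 0.0223, 0.0221 and 0.0195. All 6 old AL libraries lay above every library of both other groups, and young AL and old CR overlapped. On the log2 scale old AL exceeded young AL by 0.62 (standard error 0.105, or 1.54-fold) with the smallest p that a two-sided exact permutation test of 6 against 6 can give, 0.00216 (adjusted p = 0.0130 over 18 ratio tests). Old CR was lower than old AL by a log2 difference of -0.80 (standard error 0.123, exact permutation p = 0.00216, adjusted p = 0.0130). Between old CR and young AL the difference was -0.18 (standard error 0.139, exact permutation p = 0.232, adjusted p = 0.417).

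The ratio of rno-miR-99a-5p to rno-miR-100-5p set old CR apart from both ad libitum groups. It was 11.0, 10.6, 8.81, 9.62, 11.8 and 13.9 in young AL, 9.88, 8.34, 10.8, 9.87, 9.86 and 10.3 in old AL, and 14.1, 12.8, 14.8, 14.4, 14.7 and 16.2 in old CR. Every old CR library lay above every old AL library, and 5 of 6 above every young AL library. The log2 difference was 0.56 against old AL (standard error 0.0683, 1.48-fold, exact permutation p = 0.00216, adjusted p = 0.0130) and 0.42 against young AL (standard error 0.105, exact permutation p = 0.00433, adjusted p = 0.0195). Between old AL and young AL it was -0.15 (standard error 0.107, exact permutation p = 0.212, adjusted p = 0.417). With any 1 library left out, the called differences of these ratios stayed at an adjusted p of at most 0.0390 by the exact permutation test.

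As shares of the summed CPM of its family, rno-miR-99a-5p made up 89.2 ± 1.39%, 87.3 ± 0.788% and 91.4 ± 0.800% of the miR-99/100 family for young AL, old AL and old CR (SD, n = 6). rno-miR-100-5p made up 8.30 ± 1.17%, 8.93 ± 0.726% and 6.33 ± 0.440%, and rno-miR-99b-5p 2.53 ± 0.324%, 3.79 ± 0.370% and 2.30 ± 0.401%. The family summed to 9430 ± 2259, 6788 ± 741 and 9161 ± 1413 CPM in the same order, mostly through its main member. In the miR-125 family, with rno-miR-351-5p left out, rno-miR-125b-5p made up 78.4 ± 3.37%, 74.7 ± 1.90% and 76.5 ± 3.97% in the same order.

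**Figure D2:**
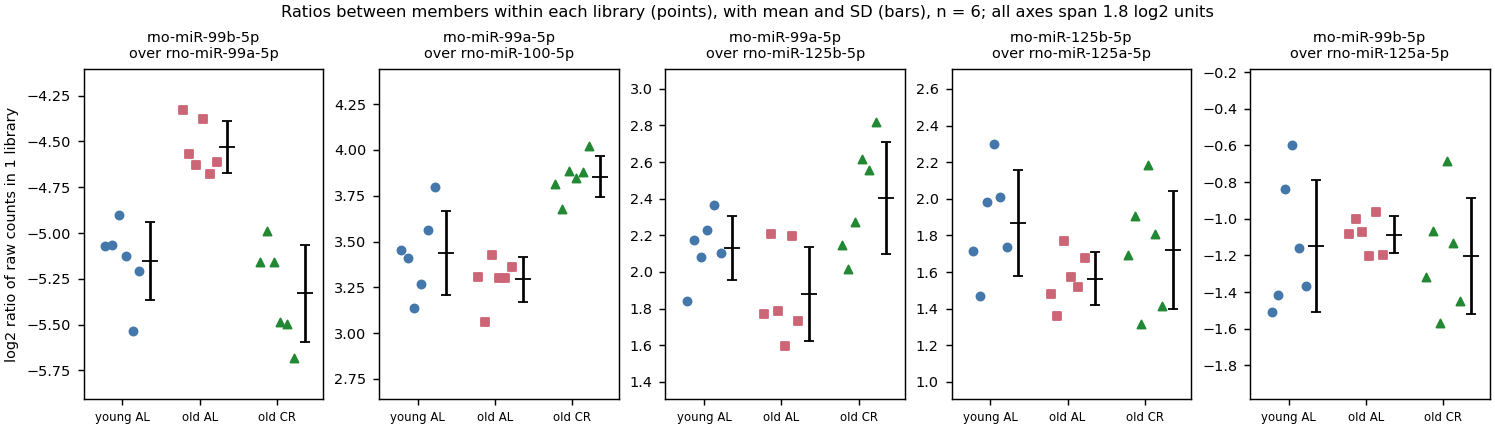
log2 ratio of the raw counts of 2 members in each library (y axes, all of the same span), by group. Points are libraries in order of replicate, bars show the mean and SD (n = 6). Old AL stands above both other groups for rno-miR-99b-5p over rno-miR-99a-5p, and old CR stands above old AL for rno-miR-99a-5p over rno-miR-100-5p, while the groups overlap in the other panels.

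The 4 other ratios gave no adjusted p of at most 0.05. rno-miR-99a-5p over rno-miR-125b-5p, from the cluster of Mir99a, had a median of 4.41 in young AL (3.59 to 5.16), of 3.43 in old AL (3.02 to 4.62) and of 5.36 in old CR (4.04 to 7.05). The log2 difference of 0.52 between old CR and old AL (standard error 0.164) had an exact permutation p of 0.0152 and an adjusted p of 0.0545, which passed at 0.0468 without old AL replicate 8, old AL replicate 11 or old CR replicate 14. rno-miR-125b-5p over rno-miR-125a-5p had a median of 3.64 in young AL (2.77 to 4.92), of 2.92 in old AL (2.57 to 3.41) and of 3.37 in old CR (2.49 to 4.55). Its log2 difference of -0.31 between old AL and young AL (standard error 0.132) had an exact permutation p of 0.0476 and an adjusted p of 0.143, and the adjusted p was 0.0312 without young AL replicate 2.

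rno-miR-99b-5p over rno-miR-125a-5p, both from the cluster of Mir99b, averaged 0.464 ± 0.122 for young AL, 0.472 ± 0.0325 for old AL and 0.443 ± 0.103 for old CR (SD, n = 6), with log2 differences of 0.06, -0.05 and -0.12 (standard errors 0.153, 0.196 and 0.136) and exact permutation p of 0.424 to 0.784. For rno-miR-100-5p over rno-miR-125b-5p, of the cluster of Mir100, the log2 differences were -0.11, -0.14 and -0.04 (standard errors 0.183, 0.146 and 0.168), with exact permutation p of 0.307 to 0.792.

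The other arms of the same precursors, which are mostly degraded when the main strand is loaded, were far less abundant and gave no call. Of 6 arms tested, edgeR called 0 in each comparison, and 1 stood at an unadjusted p under 0.05 in old AL against young AL, 0 in the comparisons with old CR. That arm was rno-miR-125b-1-3p, which is unique to Mir125b1, at 5.77 ± 1.49, 4.05 ± 1.09 and 4.94 ± 0.979 CPM for young AL, old AL and old CR (log2 fold change -0.52 in old AL, standard error 0.212, with an edgeR adjusted p of 0.174). rno-miR-125b-2-3p, the arm unique to Mir125b2, was higher at 38.5 ± 7.74, 37.9 ± 7.21 and 39.0 ± 10.1 CPM, with log2 fold changes between -0.02 and 0.04. rno-miR-125b-5p followed rno-miR-125b-2-3p over the 18 libraries with a Pearson r of 0.722, beside 0.288 for rno-miR-125b-1-3p.

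rno-miR-99a-3p, the other strand of the most abundant member, was at 1.81 ± 0.534, 1.61 ± 0.635 and 1.79 ± 0.185 CPM in the 3 groups, on 59 to 162 counts per library, and its log2 fold change in old CR against old AL was 0.16 (standard error 0.250, with an edgeR adjusted p of 0.878). The log2 ratio of rno-miR-99a-5p to rno-miR-99a-3p differed by 0.25 between old CR and old AL (standard error 0.307, exact permutation p = 0.446). rno-miR-99b-3p stayed between 6.61 and 7.04 CPM in the group means. rno-miR-100-3p had 3 to 16 counts per library, too few for a comparison. Among 7 ratios of this kind, chosen after the counts were seen and tested in 3 comparisons each, 0 passed at an adjusted p of 0.05 over 21 exact permutation tests, and 3 had an unadjusted p under 0.05.

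The let-7 miRNAs, known as repressors of growth and of the immature cell state, have genes in the same 3 clusters. edgeR called 0 of 6 entries in each comparison. rno-let-7c-5p, neighbour of rno-miR-99a-5p, was at 2081 ± 581, 1802 ± 174 and 2174 ± 271 CPM for young AL, old AL and old CR (SD, n = 6). Its log2 fold change of 0.28 in old CR against old AL (standard error 0.111, unadjusted p = 0.0285, adjusted p = 0.392 from edgeR) had the sign of that of rno-miR-99a-5p, with 3 of 6 old CR libraries above all old AL libraries. rno-let-7e-5p, between Mir99b and Mir125a, had log2 fold changes of 0.16, 0.02 and -0.13 (standard errors 0.203, 0.222 and 0.180), and rno-let-7a-5p had 0.08, 0.17 and 0.11 (standard errors 0.181, 0.208 and 0.176).

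**Figure D3:**
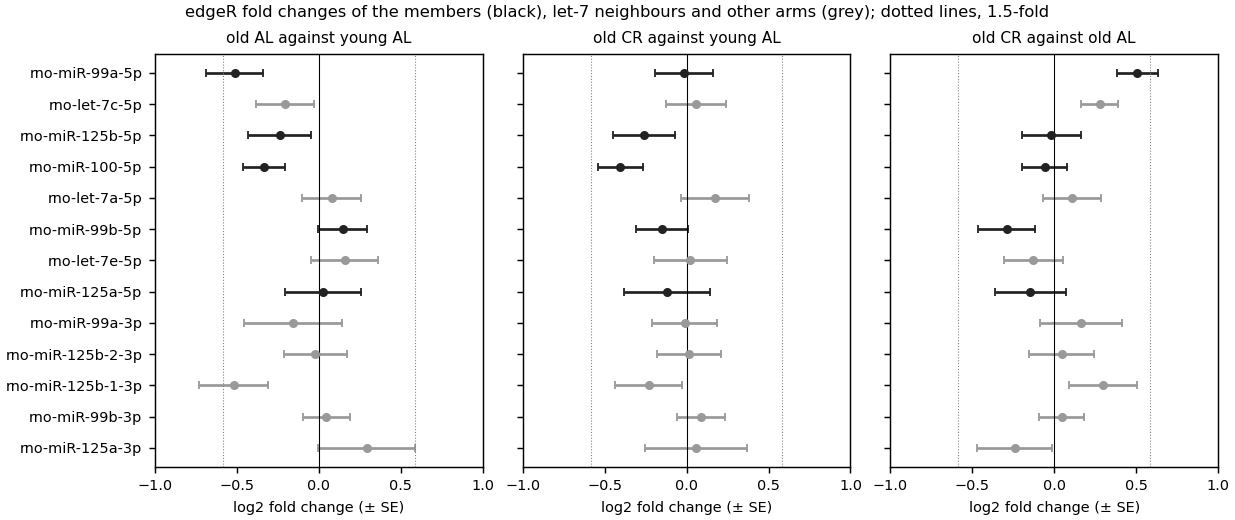
edgeR log2 fold changes (points, x axis) with their standard errors (bars) in the 3 comparisons, for the members (black), the let-7 miRNAs of the same clusters and the other arms with enough counts (grey). Dotted lines mark 1.5-fold. No point passes 1.5-fold, and rno-miR-99a-5p has the largest difference of the members in old AL against young AL and in old CR against old AL.

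Over the 18 libraries the members varied together to different degrees. For log2 CPM, 10 pairs were compared, with permutation p adjusted over the 10. Where r is given without 2 libraries, those are the ones farthest from the median of the first-named miRNA of the pair. For the miR-125 pair that is rno-miR-125a-5p. rno-miR-99b-5p and rno-miR-125a-5p, products of 1 cluster, had a Pearson r of 0.746 (adjusted permutation p = 0.0011) and a Spearman rho of 0.789 (adjusted permutation p = 9.5e-04), with r = 0.664 without the 2 libraries farthest from the median. rno-miR-99b-5p and rno-miR-125b-5p, which share no cluster, had the same r of 0.746 (adjusted permutation p = 0.0011, rho = 0.676 with adjusted permutation p = 0.00777, r = 0.711 without 2 libraries). The 2 miR-125 miRNAs had r = 0.729 (adjusted permutation p = 0.0025, rho = 0.787 with adjusted permutation p = 9.5e-04, r = 0.778 without 2 libraries). The median r over all 14365 pairs of the 170 known miRNAs with at least 10 CPM was 0.0395. For the other pairs of 1 cluster, r was 0.529 for rno-miR-99a-5p and rno-miR-125b-5p and 0.576 for rno-miR-100-5p and rno-miR-125b-5p (adjusted permutation p = 0.0353 and 0.0267, rho = 0.474 and 0.459 with adjusted permutation p = 0.101 for both, r = 0.446 and 0.398 without 2 libraries). All libraries share the TMM scaling, and by library totals alone every one of the 10 pairs had an r between 0.746 and 0.927.

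Within groups some pairs had a higher r than over all libraries. rno-miR-99a-5p and rno-miR-99b-5p had r = 0.168 over all libraries (permutation p = 0.506, rho = 0.172 with permutation p = 0.489), but 0.890 within young AL, 0.909 within old AL and 0.595 within old CR (n = 6 each), and 0.677 after the group means were subtracted (permutation within groups, adjusted p = 0.00214). The libraries of old AL lay apart from the others at a higher rno-miR-99b-5p for their rno-miR-99a-5p, as the ratio shows. For rno-miR-99a-5p and rno-miR-100-5p the pooled r was 0.570 (adjusted permutation p = 0.0267, rho = 0.453 with adjusted permutation p = 0.101). This pooled value fell to 0.272 without the 2 libraries farthest from the median of rno-miR-99a-5p. Within the 3 groups r was 0.822, 0.809 and 0.873, and it was 0.779 after the group means were subtracted. The lowest values were those of rno-miR-125a-5p with rno-miR-100-5p (r = 0.264, rho = 0.230) and with rno-miR-99a-5p (r = 0.269, rho = 0.302), neither past an adjusted permutation p of 0.05. The third miR-99/100 pair, rno-miR-99b-5p and rno-miR-100-5p, had r = 0.536 (adjusted permutation p = 0.0353, rho = 0.437 with adjusted permutation p = 0.104, r = 0.435 without 2 libraries).

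**Figure D4:**
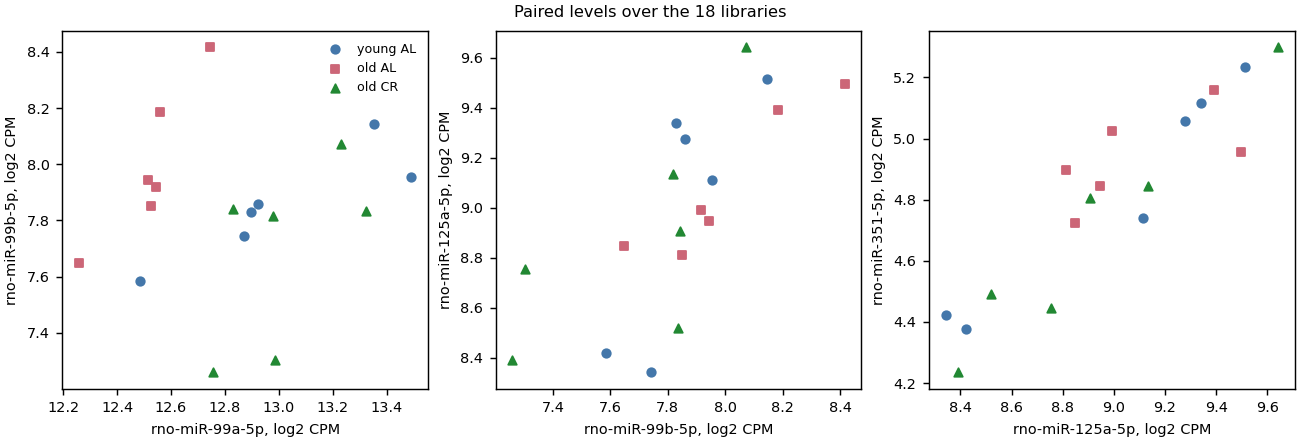
log2 CPM of 2 miRNAs against each other over the 18 libraries, coloured by group, for rno-miR-99b-5p against rno-miR-99a-5p (r = 0.168), rno-miR-125a-5p against rno-miR-99b-5p (r = 0.746) and rno-miR-351-5p against rno-miR-125a-5p (r = 0.922). In the left panel the old AL libraries form a band of their own to the upper left of the others.

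The members, the let-7 miRNAs of their clusters and their other arms were left out of a search for similar miRNAs. Of the other known miRNAs of at least 10 CPM, those with the most similar levels over the 18 libraries were as follows, by Pearson r of log2 CPM. For rno-miR-125a-5p it was rno-miR-351-5p (r = 0.922, and 0.926 with group means subtracted), which holds the same seed, as shown above, and which was at 29.1 ± 7.14, 30.7 ± 3.23 and 26.5 ± 7.33 CPM in the 3 groups. rno-let-7d-3p (0.796) and rno-let-7b-5p (0.775) came next. rno-miR-351-5p was also first for rno-miR-99b-5p (0.762), before rno-miR-423-5p (0.747) and rno-miR-23a-3p (0.729). For rno-miR-99a-5p the list was rno-miR-676 (0.797), rno-miR-196b-5p (0.754) and rno-miR-204-5p (0.662), for rno-miR-100-5p it was rno-miR-196b-5p (0.740), rno-miR-181d-5p (0.664) and rno-miR-22-3p (0.660), and for rno-miR-125b-5p it was rno-miR-204-5p (0.734), rno-miR-181a-2-3p (0.721) and rno-miR-23b-3p (0.694). These values describe the 18 libraries only.

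Markers of cell types, striated muscle among them, were measured beside these levels, 27 entries in 7 lists, none of them at 0 in all libraries. Of the 4 miR-1 family entries, the striated muscle list holds rno-miR-1-3p alone, so its sum leaves the other entries out. The summed level of the 7 striated muscle miRNAs was 92670 to 131100 CPM in young AL, 71420 to 140400 CPM in old AL and 94880 to 188200 CPM in old CR. For the 2 endothelial entries of miR-126a it was 4548 to 8098, 3831 to 7247 and 3980 to 6834 CPM, and for the 5 fibroblast and smooth muscle miRNAs 6351 to 11410, 6115 to 11100 and 6350 to 11150 CPM, so the ranges of the groups overlapped. The 4 neural miRNAs summed to 9.01 to 26.0, 12.2 to 37.0 and 20.4 to 150 CPM, and the liver miRNA rno-miR-122-5p was at 0.570 to 38.4, 49.0 to 772 and 102 to 186 CPM. edgeR called rno-miR-9a-5p, rno-miR-124-3p and rno-miR-122-5p in old CR against young AL (log2 fold changes of 2.27, 2.74 and 3.53). The other neural miRNAs, rno-miR-338-3p and rno-miR-219a-5p, were not called there (log2 fold changes of -0.03 and 0.30). In old AL against young AL, rno-miR-9a-5p, rno-miR-124-3p and rno-miR-122-5p had log2 fold changes of 0.77, 1.41 and 4.36. Those of rno-miR-338-3p and rno-miR-219a-5p were -0.75 and 0.85, and none of these was called (lowest edgeR adjusted p 0.071). The 5 leukocyte miRNAs reached 604 CPM in old AL, against at most 171 in young AL and 239 in old CR. The medians of their sum were close, at 159, 140 and 143 CPM in young AL, old AL and old CR. rno-miR-150-5p, with a mean of 132 CPM, makes up most of this sum. In old AL against young AL, log2 fold changes were 2.25 for rno-miR-142-5p, 1.90 for rno-miR-142-3p and 1.16 for rno-miR-155-5p. They were 0.40 for rno-miR-223-3p and 0.15 for rno-miR-150-5p, and edgeR called none of the 5 (lowest edgeR adjusted p 0.114). The 3 erythroid miRNAs summed to 3.29 to 11.7 CPM over all libraries. The part of these cells in the levels of the members was not tested.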

How the data were processed

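Small RNA libraries (NEBNext, 1 per rat) were sequenced by the authors. They trimmed adapters with Cutadapt 1.2.1 and low-quality ends with Sickle, dropped reads under 12 nt and ran miRDeep2. The table they deposited holds raw counts per entry, attributed to featureCount. The submitters' processing notes name Rnor_6.0 and Bowtie2 2.4.0. The release of miRBase, the use of strand and the handling of reads with several matches: not given in the sources used here. All columns were matched to samples (0 left out). RefSeq sequences and gene order are of GRCr8, another build, so no coordinates are given.

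TMM factors were computed over all 18 libraries for levels, and over the 12 libraries of 2 groups for tests, with edgeR 4.0.16 (quasi-likelihood, robust) in R 4.3.3. Entries with at least 10 counts in total were tested (prior count 0.5 for log2 CPM), p was adjusted by Benjamini-Hochberg over all of them, and the standard error is the log2 fold change over the square root of F. The edgeR and DESeq2 fits were tested on simulated counts. DESeq2 1.42.0 was an alternative. Log2 ratios of counts were compared by two-sided exact permutation over 924 arrangements, and correlations with 100000 permutations (Python 3.11.15, scipy 1.17.1). Named entries are the members, their other arms, the let-7 miRNAs of their clusters, rno-miR-3588, entries with their counts, the 3 most similar known miRNAs and the markers. The members, lists and tests were chosen with earlier results of these data known.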

Additional observations from a re-analysis of the deposited data

Results flagged for a closer look

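Of 33 sets of 6 libraries examined (5 levels and 6 ratios in 3 groups), 1 held a library far from the rest, where chance gives about 1 in 20. In old AL replicate 8 the log2 ratio of rno-miR-99a-5p to rno-miR-100-5p was 3.0597, below the next lowest old AL value of 3.3016, a gap of 0.659 of the range of the group. Without this library the difference between old CR and old AL in this ratio kept its call.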

How the results depend on the processing

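No member was called under any of 68 alternatives to the fits, and the 4 ratio differences past the threshold kept direction and call under every alternative tried. Calls among all entries moved more: 24, 68 and 2 in the 3 comparisons became 0, 47 and 0 by library totals, 84, 109 and 19 by DESeq2, 53, 94 and 0 with known miRNAs alone and, in old AL against young AL, 37 with filterByExpr. With 1 library left out they ranged from 9 (young AL 3 or old AL 12 absent) to 20, from 45 (old CR 18 absent) to 67, and from 0 to 3. Differences near 0 changed sign. For rno-miR-125a-5p, old AL against young AL gave -0.0077 with filterByExpr and -0.0947 to 0.1418 with 1 library left out, and old CR against young AL gave 0.0218 without young AL replicates 1 and 2, whose library numbers stand apart. With 1 library left out, rno-miR-99a-5p in old CR against young AL ranged from -0.1011 to 0.0996 and rno-miR-125b-5p in old CR against old AL from -0.0993 to 0.0624.

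Among ratios, the difference in medians gave 0.0378 for rno-miR-99b-5p over rno-miR-125a-5p (old CR against young AL), 0.1136 for rno-miR-100-5p over rno-miR-125b-5p and 0.6374 for rno-miR-99a-5p over rno-miR-125b-5p (old CR against old AL), the last past the threshold. Without young AL replicates 1 and 2, old AL against young AL gave -0.4449 for rno-miR-125b-5p over rno-miR-125a-5p, past the threshold, and -0.0964 for rno-miR-99b-5p over rno-miR-125a-5p. With 1 library left out these 2 ranged from -0.3863 to -0.2203 and from -0.0109 to 0.1717, rno-miR-99b-5p over rno-miR-125a-5p in old CR against young AL from -0.1588 to 0.0551, rno-miR-99a-5p over rno-miR-125b-5p in old CR against old AL from 0.4404 to 0.6006, and rno-miR-100-5p over rno-miR-125b-5p there from -0.0974 to 0.0737.

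By library totals r passed the threshold at 0.756 for rno-miR-99a-5p with rno-miR-99b-5p, 0.746 for rno-miR-99a-5p with rno-miR-125a-5p and 0.778 for rno-miR-100-5p with rno-miR-125a-5p. With group means subtracted it was 0.677 for rno-miR-99a-5p with rno-miR-99b-5p, now past it, and 0.48 for rno-miR-100-5p with rno-miR-125b-5p, no longer past it. Leaving out old AL replicate 7, chosen after seeing the data, changed no call of a correlation. The cause of these changes was not tested. No paired analysis was possible because the groups are made up of different rats.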
